A study of Saccharomyces cerevisiae with 36 samples.

Results

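LSO1 (YJR005C-A) and LSO2 (YGR169C-A) are a pair of paralogous budding yeast genes for very small ribosome-binding proteins. They were taken by their feature identifiers, which makes 2 genes of the 7127 features counted in each library, and both passed the filter on low counts in both assays. The name stands for late-annotated small open reading frame. Libraries came from a cth1Δcth2Δ double deletion mutant and from the wild type, both of the W303a background, at 0 h, 3 h and 6 h of treatment with 100 µM bathophenanthroline disulfonic acid (BPS), a chelator of ferrous iron. The 0 h cultures of both strains were grown with sufficient iron, and all cultures were grown in synthetic complete medium. Poly(A)-selected RNA (RNA-seq) and fragments protected by single ribosomes (Ribo-seq, called footprints here) were sequenced from aliquots of lysates prepared with cycloheximide. Each of the 12 groups of assay, strain and time held 3 biological replicates, 36 libraries in all, and the labels do not say whether the mutant replicates are separate clones.

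Yeast that runs short of iron switches on the iron regulon, a set of genes for iron uptake and mobilisation driven by the transcription factors Aft1 and Aft2, which bind a short DNA element with the core CACCC. LSO1 belongs to the genes known to respond to iron deprivation through Aft1 and, to a lesser degree, Aft2. Lso2 is known for binding idle ribosomes and for being needed when translation restarts after starvation, and it has a human orthologue, CCDC124. Cth1 and Cth2, the proteins missing in the mutant, bind AU-rich elements in mRNAs and lower the levels of many of them when iron is scarce. The design asks how iron shortage changes RNA levels and ribosome occupancy, and how much of that depends on Cth1 and Cth2.

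In the R64 assembly of the reference strain S288C, the LSO1 coding sequence lies at chrX:448477-448758 on the minus strand and is 282 nt long, or 93 codons without the stop. LSO2 lies at chrVII:836387-836665 on the minus strand and is 279 nt long, or 92 codons. Neither coding sequence overlaps another annotated gene. In a global alignment, 69.2% of the columns without a gap were identical (182 columns), and the longest run of bases that both coding sequences share was 11 nt. Hydrolysed mRNA fragments of 50 to 75 nt were used per the labels' protocols, so no such RNA fragment from inside either coding sequence has an identical copy in the other.

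The sequences before the coding regions are shown because letters that match the element of Aft1 and Aft2 occur in the LSO1 window and not in the LSO2 window. Each runs from 250 bases before the start codon to 50 bases into the coding sequence, 5′ to 3′ on the coding strand, from the RefSeq R64 assembly. Capitals mark CACCC or, where it is present, the longer form TGCACCC. The windows are chrX:448709-449008 for LSO1 and chrVII:836616-836915 for LSO2, both on the minus strand.
LSO1: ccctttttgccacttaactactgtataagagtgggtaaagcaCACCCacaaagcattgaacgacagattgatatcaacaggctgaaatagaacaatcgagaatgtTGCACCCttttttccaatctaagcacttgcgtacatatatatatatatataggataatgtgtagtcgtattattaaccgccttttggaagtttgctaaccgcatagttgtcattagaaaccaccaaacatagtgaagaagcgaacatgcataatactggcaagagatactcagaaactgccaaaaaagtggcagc
LSO2: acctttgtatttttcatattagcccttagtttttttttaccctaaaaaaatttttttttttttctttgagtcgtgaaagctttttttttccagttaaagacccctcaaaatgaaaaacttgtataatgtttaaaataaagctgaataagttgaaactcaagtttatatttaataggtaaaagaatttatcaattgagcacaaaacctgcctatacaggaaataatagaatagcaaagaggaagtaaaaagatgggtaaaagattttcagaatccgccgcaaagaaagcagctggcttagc

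Counted from the start codon, the LSO1 window held CACCC at -208 and at -143, both on the coding strand, and the second lay inside a TGCACCC that begins at -145. The LSO2 window held neither motif on either strand. Searched on both strands, CACCC was present in the same window of 1199 of 5996 protein-coding genes (20%) and in 20 of the 27 iron-regulon genes listed for this work (74.1%). TGCACCC was present in 78 of the 5996 genes (1.3%) and in 13 of the 27 (48.1%). The AU-rich octamer TTATTTAT was searched in the 300 nt that follow each stop codon, on the coding strand. It was absent from this stretch of LSO1 and of LSO2. It was present in 412 of the 5996 genes (6.87%) and in 4 of the 27 (14.8%). These matches describe letters in a window and do not show that a protein binds there. No AU-rich sequence other than TTATTTAT was searched. Its absence therefore does not show that the LSO1 and LSO2 mRNAs lack sites for Cth1 or Cth2.

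**Figure D1:**
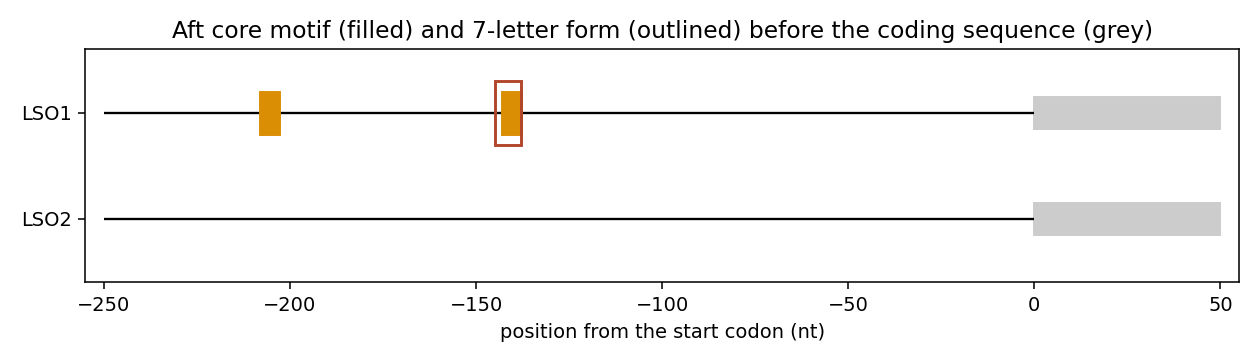
Positions of the Aft core motif (filled boxes) and its 7-letter form (outlined) on the coding strand before the LSO1 (upper line) and LSO2 (lower line) coding sequences, in nt from the start codon. LSO1 has core matches at -208 and -143, and the LSO2 line carries none.

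RNA-seq libraries held 113262 to 6571727 counts in total, with a median of 1474766, and Ribo-seq libraries 607936 to 28491058, with a median of 4631432. Levels are given as CPM, the count scaled to a common library size with TMM factors. A floor of 3 counts equalled 0.463 to 22.2 CPM among the RNA-seq libraries and 0.111 to 4.31 CPM among the Ribo-seq libraries, for counting error alone. CTH1 RNA was 0.605, 1.23 and 0.996 CPM on average in the mutant at 0 h, 3 h and 6 h, against 47.6, 26.4 and 37.0 CPM in the wild type. TIS11, the standard name of CTH2, was 6.97 ± 3.91 CPM in the mutant at 6 h and 329 ± 70.8 CPM in the wild type (SD, n = 3 each). At 0 h, where the wild type holds little TIS11 RNA, the strains overlapped, with 4.53 ± 5.25 CPM in the mutant and 6.99 ± 2.41 CPM in the wild type. The highest of these 6 libraries was mutant replicate 3, with 34 TIS11 counts or 10.3 CPM, so TIS11 does not check the 0 h labels.

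LSO1 RNA rose steeply with BPS in both strains. In the mutant its RNA was 0, 6.16 and 16.6 CPM at 0 h, then 134, 240.3 and 269.9 CPM at 3 h and 365, 279.6 and 335 CPM at 6 h. Wild-type cells had 1.09, 0 and 3.64 CPM at 0 h, then 36.3, 101 and 52.7 CPM at 3 h and 252, 116 and 119 CPM at 6 h. Every library with BPS lay above every 0 h library of its strain. In these bulk cultures, more LSO1 RNA in each cell and more cells with LSO1 RNA cannot be told apart.

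The rise of LSO1 RNA passed the threshold of 0.05 in all 4 comparisons (edgeR, quasi-likelihood test, p adjusted by Benjamini-Hochberg over 6006 features). In the mutant the log2 fold change against 0 h was 4.44 at 3 h (SE 0.64, adjusted p = 0.000216), or 21.7-fold, and 5.04 at 6 h (SE 0.65, adjusted p = 5.79e-06), or 32.9-fold. The wild-type value was 4.87 at 3 h (SE 0.72, adjusted p = 0.000193), or 29.2-fold, and 6.17 at 6 h (SE 0.75, adjusted p = 1.84e-06), or 72.2-fold. Among all features 2.13% passed as higher in the mutant at 3 h and 17.8% at 6 h, against 2.66% and 19.2% in the wild type. Groups that do not overlap were found for 21.9% and 45.3% of features in the mutant at 3 h and 6 h, and for 23.8% and 44.6% in the wild type. Ordered by log2 fold change from the top, LSO1 held place 5 at 3 h in each strain, place 17 at 6 h in the mutant and place 11 at 6 h in the wild type.

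The size of the LSO1 RNA change depended on few reads at 0 h. The mutant libraries at 0 h held 0, 1 and 55 LSO1 counts and the wild-type libraries 6, 0 and 11. The 55 counts of mutant replicate 3 set the mutant baseline: without that library the log2 fold change of LSO1 was 7.68 at 3 h and 8.28 at 6 h. Without wild-type 0 h replicate 1 it was 4.24 at 3 h and 5.55 at 6 h in the wild type, and without replicate 3 it was 5.82 and 7.13. Scaling by total counts alone moved the mutant 6 h value of LSO1 to 5.81, and the median of all features to 0.71, against 0.01 with TMM. With that scaling 2422 features passed as higher and 542 as lower in mutant RNA at 6 h, against 1069 and 1254 with TMM, and in wild-type RNA 2088 and 484, against 1152 and 1003. At 3 h these counts were 284 and 20 in the mutant, against 128 and 61 with TMM, and 239 and 58 in the wild type, against 160 and 89. LSO1 was among the higher features under both scalings.

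**Figure D2:**
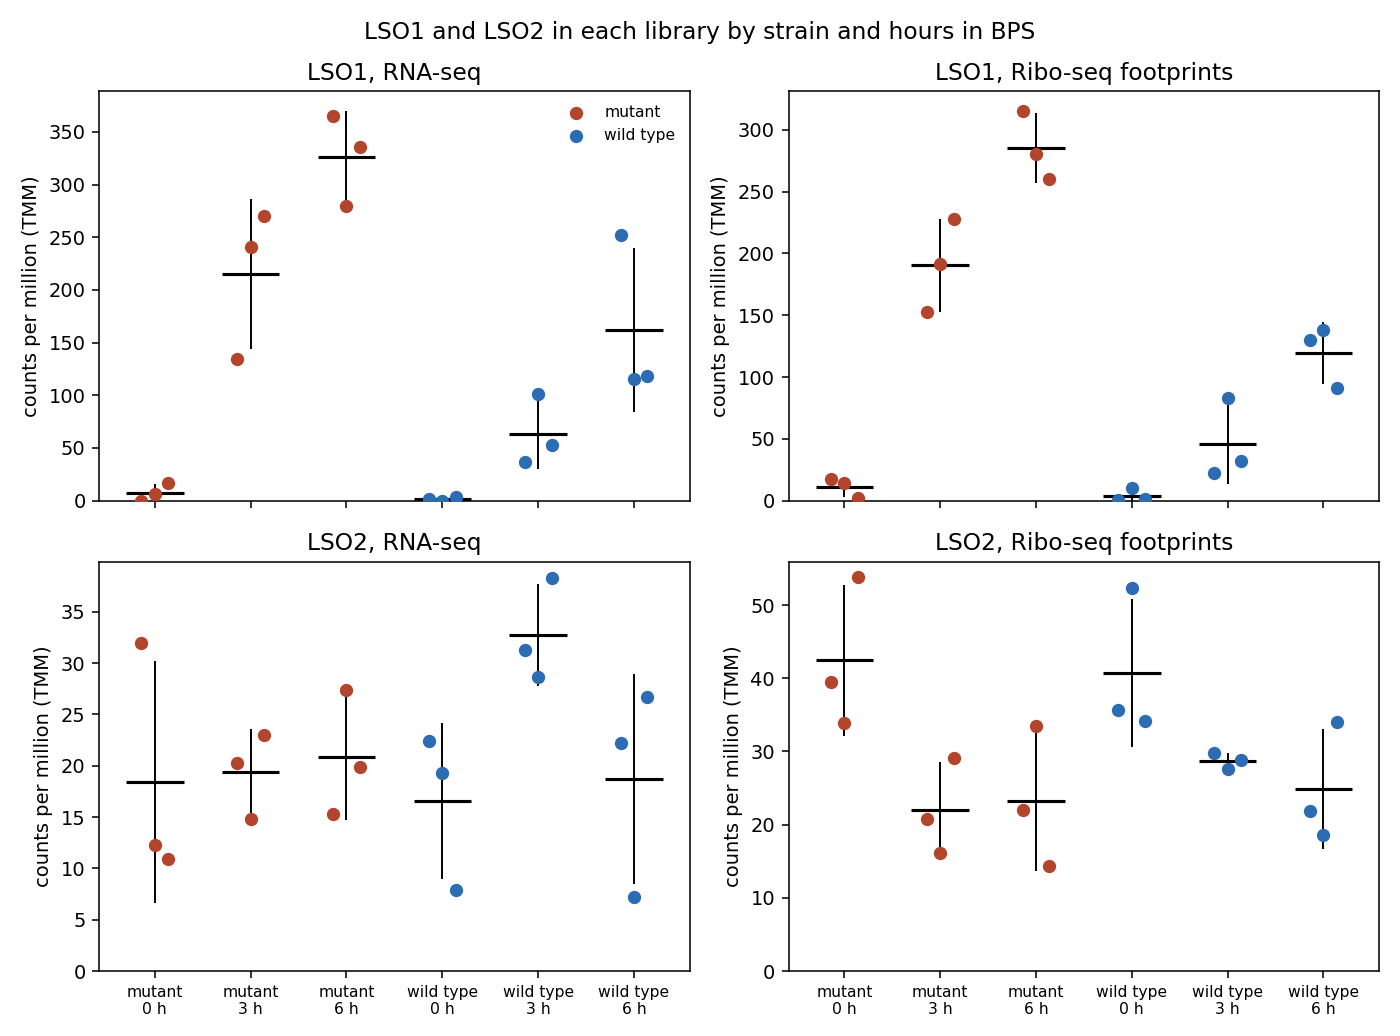
LSO1 (upper row) and LSO2 (lower row) in each library, in CPM with TMM scaling, for RNA-seq (left) and Ribo-seq footprints (right) by strain and hours in BPS. Points are libraries, horizontal bars are means and vertical bars are ± 1 SD, drawn from 0 where the lower end would be negative. LSO1 averages 327 CPM in mutant RNA and 162 CPM in wild-type RNA at 6 h, while LSO2 stays between 7.24 and 38.3 CPM in every RNA-seq library.

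Ribosomes on LSO1 increased along with its RNA. LSO1 footprints in the mutant were 17.5, 14.4 and 2.26 CPM at 0 h, 152, 191 and 227 CPM at 3 h, and 315, 281 and 259.9 CPM at 6 h. The wild type had 0.775, 10.5 and 1.02 CPM at 0 h, 22.6, 83.3 and 31.8 CPM at 3 h, and 129.99, 138 and 91.0 CPM at 6 h. All libraries with BPS were again above all 0 h libraries of the same strain.

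By edgeR's quasi-likelihood test over 5315 features, the log2 fold change of LSO1 footprints in the mutant was 4.20 at 3 h (SE 0.76, adjusted p = 0.00593) and 4.79 at 6 h (SE 0.78, adjusted p = 0.000125). That of the wild type was 4.08 at 3 h (SE 0.87, adjusted p = 0.00977) and 5.48 at 6 h (SE 0.89, adjusted p = 0.000121). As folds these are 18.4 and 27.6 in the mutant and 17.0 and 44.6 in the wild type. Among all features 2.86% and 26.2% passed as higher in the mutant at 3 h and 6 h, and 3.67% and 28.5% in the wild type. Groups that do not overlap were found for 33% and 58.2% of features in the mutant, and for 32.1% and 58.2% in the wild type. The number of features past the threshold in either direction in the mutant at 3 h was 196, and 332 with the replicate number as a block.

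The wild-type 3 h footprint result for LSO1 was the least firm of the 8. It no longer passed without wild-type 0 h replicate 1 (log2 fold change 3.67, adjusted p = 0.0685), without 0 h replicate 3 (3.05, adjusted p = 0.0791), or when the wild-type 0 h and 3 h groups were fitted on their own (4.12, adjusted p = 0.0709). Wild-type 0 h replicate 2, with 10.5 CPM, held the baseline up: without it the LSO1 values were 5.51 at 3 h and 6.90 at 6 h, and without 0 h replicate 3 the 6 h value was 4.45. Without 3 h replicate 2 the 3 h value was 3.39. In the mutant, LSO1 was 4.91 at 3 h and 5.49 at 6 h without 0 h replicate 1, and 3.56 and 4.15 without 0 h replicate 3, all past the threshold. The adjusted p of the wild-type 3 h value ranged from 4.97e-05 to 0.0791 over its alternatives.

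LSO2 RNA spanned a narrower range than that of its paralogue. It was 31.98, 12.3 and 10.9 CPM in the mutant at 0 h, 20.3, 14.8 and 23.0 CPM at 3 h, and 15.3, 27.4 and 19.9 CPM at 6 h. The wild type had 22.4, 19.3 and 7.94 CPM at 0 h, 31.3, 28.7 and 38.3 CPM at 3 h, and 22.2, 7.24 and 26.7 CPM at 6 h. The wild-type 3 h libraries were above all wild-type 0 h libraries, as for 23.8% of all features in that comparison, and in the other 3 comparisons with 0 h the groups overlapped.

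None of the 4 comparisons of LSO2 RNA with 0 h passed the threshold by edgeR's test. The log2 fold change in the mutant was 0.12 at 3 h (95% interval -0.92 to 1.16) and 0.12 at 6 h (-0.87 to 1.11). In the wild type it was 1.04 at 3 h (0.10 to 1.99, adjusted p = 0.273) and 0.41 at 6 h (-0.62 to 1.43). Intervals that include 0 do not show that LSO2 RNA stayed level. In 5 RNA-seq libraries LSO2 was counted 2 to 4 times only, among them wild-type 6 h replicates 1 and 2 with 3 and 2 counts.

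Footprints on LSO2 were lower with BPS in both strains. They were 39.6, 33.9 and 53.9 CPM in the mutant at 0 h, 20.8, 16.1 and 29.1 CPM at 3 h, and 22.01, 33.5 and 14.4 CPM at 6 h. Wild-type libraries had 35.7, 52.3 and 34.2 CPM at 0 h, 29.7, 27.7 and 28.9 CPM at 3 h, and 21.9, 18.6 and 34.1 CPM at 6 h. Each library with BPS lay below each 0 h library of its strain, at 6 h by a narrow margin: the highest mutant 6 h library had 33.5 CPM and the lowest mutant 0 h library 33.9 CPM, and in the wild type these were 34.1 and 34.2 CPM. Groups that do not overlap in either direction were found for 33% of all features at 3 h and 58.2% at 6 h in the mutant, and for 32.1% and 58.2% in the wild type.

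Of the 4 footprint comparisons, LSO2 passed the threshold as lower in the mutant at 6 h, with a log2 fold change of -0.82 (SE 0.32, 95% interval -1.50 to -0.14, adjusted p = 0.0426 by edgeR). In that comparison 24.5% of all features passed as lower. The other values of LSO2 were -0.96 at 3 h in the mutant (adjusted p = 0.101), -0.48 at 3 h in the wild type (adjusted p = 0.452) and -0.69 at 6 h in the wild type (adjusted p = 0.0783). The mutant 6 h call was lost with scaling by total counts (-0.64), with the 2 groups fitted on their own (-0.85), with the replicate number as a block (-0.76, adjusted p = 0.0523), and without any of mutant 0 h replicates 1 and 3 and 6 h replicates 1 and 3 (-0.60 to -0.88). The wild-type 6 h value passed without 6 h replicate 3 (-0.999, adjusted p = 0.0271), and the mutant 3 h value passed with DESeq2 (-0.98, adjusted p = 0.0455). For LSO2, then, the direction of the footprint values was the same in all 4 comparisons and under each alternative run, and the calls were not.

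**Figure D3:**
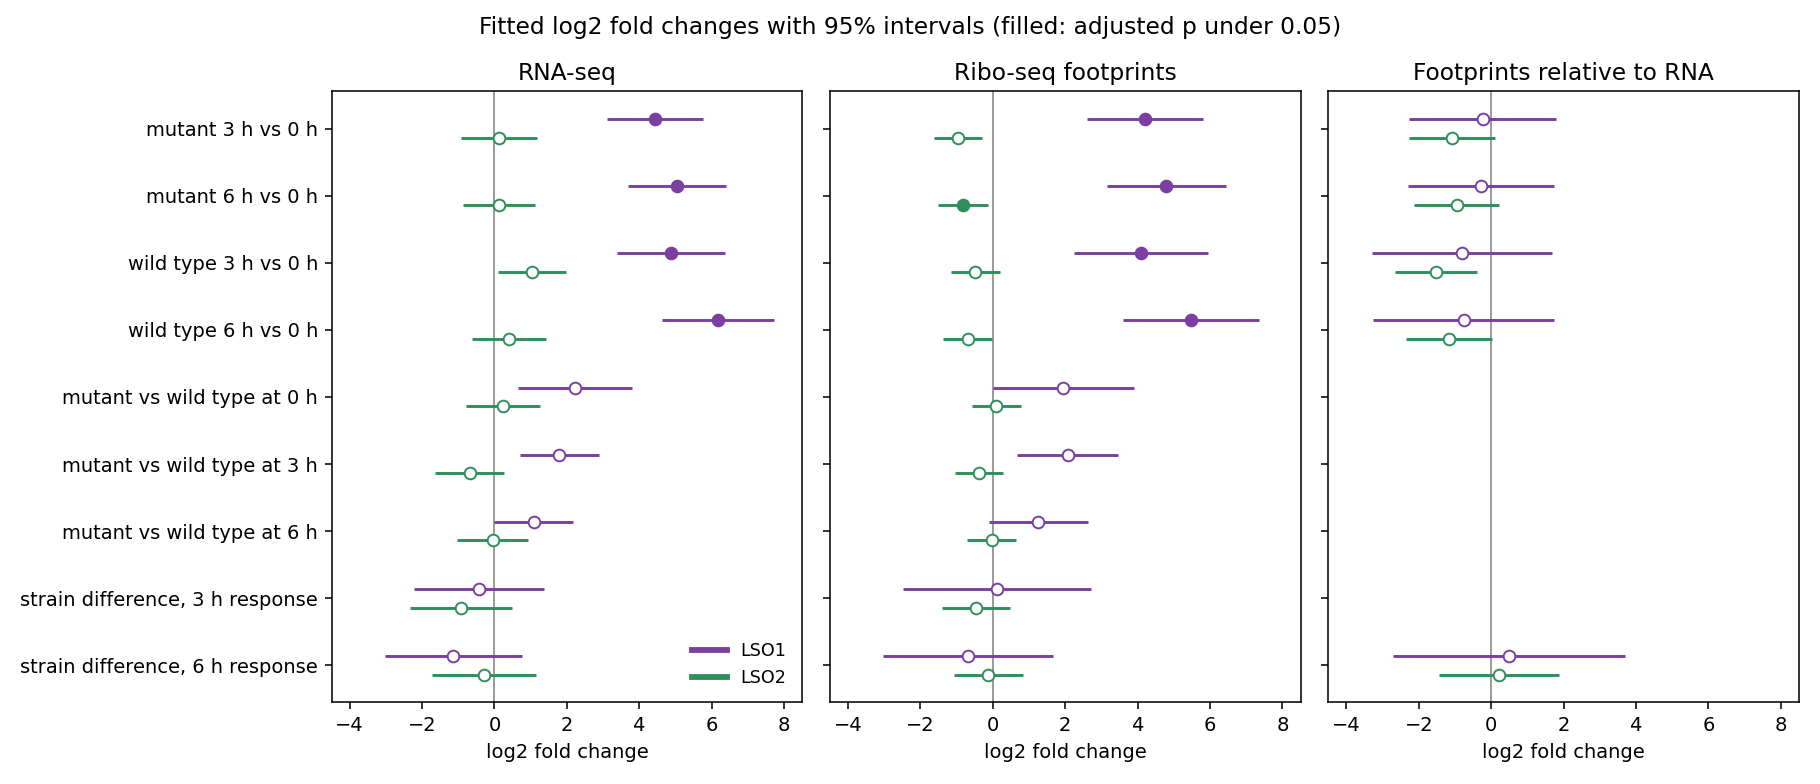
Fitted log2 fold changes of LSO1 (purple) and LSO2 (green) with 95% intervals in RNA-seq, Ribo-seq footprints and footprints relative to RNA, where 5 of the comparisons were fitted. Filled points have an adjusted p under 0.05. In RNA-seq and footprints the LSO1 values against 0 h lie between 4.08 and 6.17, and the filled LSO2 point is the mutant at 6 h in footprints (-0.82).

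The balance of the paralogues was further toward LSO1 with BPS. Counts per kb of coding sequence, which allow levels of different genes to be compared, were divided within each library, so that library scaling cancels. In RNA the ratio of LSO1 to LSO2 was 0 to 1.51 in the mutant at 0 h, 6.57 to 16.1 at 3 h and 10.1 to 23.6 at 6 h. The wild-type ratio was 0 to 0.453 at 0 h, 1.15 to 3.50 at 3 h and 4.398 to 15.8 at 6 h. In footprints the ratio was 0.0414 to 0.436 in the mutant at 0 h, 7.25 to 11.7 at 3 h and 8.28 to 17.9 at 6 h. For the wild type it was 0.0215 to 0.198, 0.751 to 2.98 and 2.64 to 7.31 at these times. Ratios of the 0 h libraries were under those of all libraries with BPS of the same strain and assay, and at 3 h all 3 mutant ratios were above all 3 wild-type ratios in each assay, as they were at 6 h in footprints but not in RNA. Some RNA ratios rest on few LSO2 counts. In the wild type at 6 h, 11.2 and 15.8 come from 3 and 2 LSO2 counts, and replicate 3, with 173, gave 4.398. The 16.1 of the mutant at 3 h comes from 4. These ratios are given as a description, with no test.

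**Figure D4:**
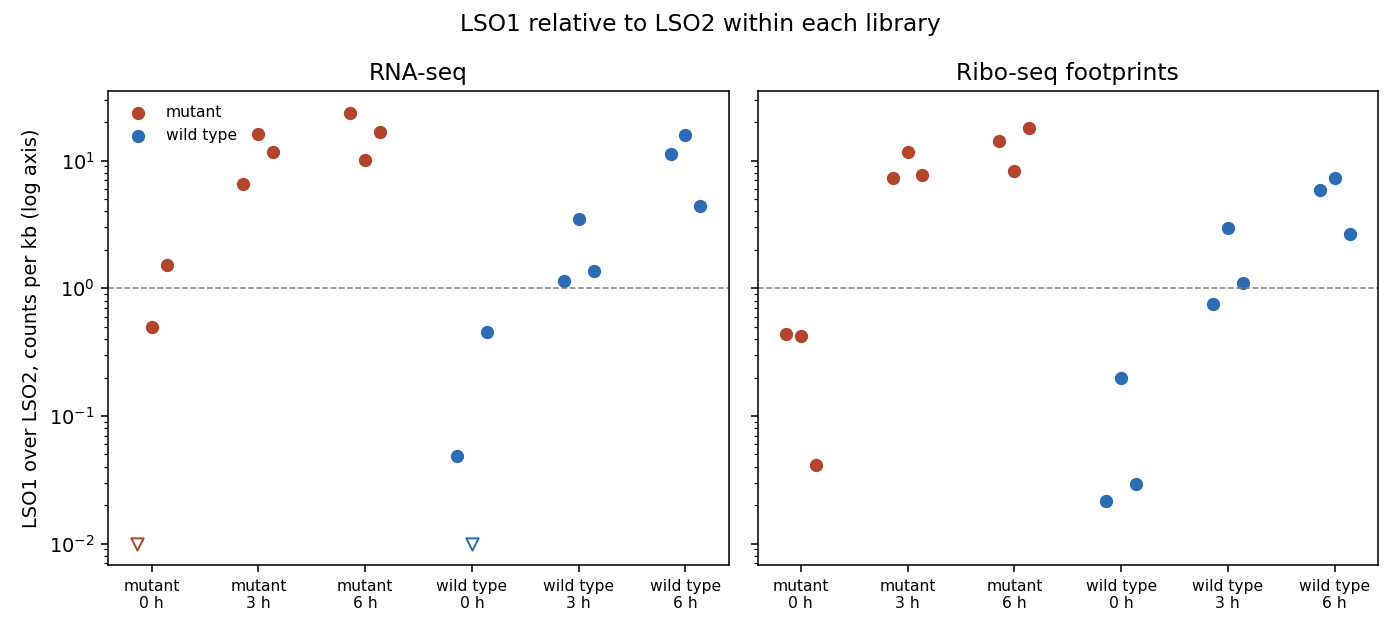
LSO1 over LSO2 in counts per kb within each library, on a log axis, for RNA-seq (left) and footprints (right) by strain and hours in BPS. Open triangles at the bottom are libraries with no LSO1 count, and the dashed line marks equal levels. Mutant RNA libraries reach 23.6 at 6 h and wild-type ones 15.8, the latter from 2 LSO2 counts.

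Set among the 6008 protein-coding features by mean CPM per kb, LSO1 RNA stood at percentile 41.8 in the mutant at 0 h, 95.5 at 3 h and 97.6 at 6 h. Wild-type LSO1 RNA stood at 11.5, 87.7 and 95.02. LSO1 footprints stood at 63.4, 95.1 and 98.0 in the mutant and at 40.6, 85.5 and 94.1 in the wild type. LSO2 held a middle to high place throughout, between 63.8 and 77.5 in RNA and between 75.4 and 84.9 in footprints.

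LSO1 averaged more in the mutant than in the wild type with BPS, although no such difference passed the threshold. Its RNA averaged 215 ± 71.3 CPM in the mutant and 63.5 ± 33.9 CPM in the wild type at 3 h, and 327 ± 43.2 CPM in the mutant and 162 ± 77.9 CPM in the wild type at 6 h (SD, n = 3 each). Its footprints averaged 190.2 ± 37.6 CPM in the mutant and 45.9 ± 32.7 CPM in the wild type at 3 h, and 285 ± 27.9 CPM in the mutant and 119.6 ± 25.0 CPM in the wild type at 6 h. At 3 h and 6 h the strains did not overlap in either assay. Groups that do not overlap were found for 10.9% and 14.9% of features in RNA at these times and for 11.5% and 16.9% in footprints.

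By edgeR's test, the log2 fold change of LSO1 RNA, mutant over wild type, was 2.22 at 0 h (adjusted p = 0.97503), 1.79 at 3 h (95% interval 0.71 to 2.88, adjusted p = 0.235) and 1.09 at 6 h (-0.0019 to 2.17, adjusted p = 0.577). In footprints it was 1.95 at 0 h, 2.07 at 3 h (95% interval 0.67 to 3.47, adjusted p = 0.329) and 1.26 at 6 h (-0.11 to 2.62, adjusted p = 0.328). Few features passed between the strains in either direction: 0.0167%, 0.45% and 0.783% of them in RNA at 0 h, 3 h and 6 h, and 0.0188%, 0.865% and 6.27% in footprints. The LSO1 RNA value at 0 h became -1.02 without mutant replicate 3, the library with 55 counts.

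LSO2 did not separate the strains in these tests. Its RNA log2 fold change, mutant over wild type, was 0.24 at 0 h (95% interval -0.79 to 1.26), -0.69 at 3 h (-1.64 to 0.27) and -0.05 at 6 h (-1.04 to 0.93). In footprints it was 0.09 (-0.58 to 0.77), -0.38 (-1.04 to 0.27) and -0.04 (-0.72 to 0.64). At 3 h the LSO2 RNA values of the mutant, up to 23.0 CPM, were all under those of the wild type, which started at 28.7 CPM, and 10.9% of all features likewise did not overlap.

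Whether the response to BPS differed between the strains was tested as the mutant change minus the wild-type change. For LSO1 RNA this difference was -0.43 at 3 h (95% interval -2.22 to 1.36) and -1.14 at 6 h (-3.02 to 0.75), and for LSO1 footprints 0.12 (-2.49 to 2.72) and -0.69 (-3.05 to 1.66). For LSO2 RNA it was -0.92 (-2.32 to 0.48) and -0.29 (-1.72 to 1.13), and for LSO2 footprints -0.48 (-1.42 to 0.46) and -0.13 (-1.09 to 0.83). The lowest adjusted p among these 8 tests by edgeR was 0.822. Over all features 0.0167% and 0.0333% passed in RNA at 3 h and 6 h, and 0.282% and 2.97% in footprints. Without mutant 0 h replicate 3 the RNA differences of LSO1 were 2.81 and 2.11.

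Footprints relative to RNA, or translational efficiency, were tested in a model of all 36 libraries. LSO1 had log2 changes of -0.24 at 3 h (95% interval -2.27 to 1.79) and -0.28 at 6 h (-2.30 to 1.74) in the mutant, and of -0.81 (-3.30 to 1.67) and -0.76 (-3.27 to 1.74) in the wild type. LSO2 had -1.09 (-2.28 to 0.11) and -0.95 (-2.12 to 0.22) in the mutant, and -1.53 (-2.65 to -0.41) and -1.16 (-2.35 to 0.02) in the wild type. The strain difference at 6 h was 0.49 for LSO1 and 0.21 for LSO2. None passed by edgeR's test over 5290 features, where 0%, 1.68%, 0.0378%, 0.284% and 0% of features did in these 5 comparisons in the order given. The unadjusted p of LSO2 in the wild type at 3 h was 0.00909, with an adjusted p = 0.9997. At 3 h in the mutant 324 features and for the strain difference at 6 h 92 features had an unadjusted p under 0.05. With RNA-seq and Ribo-seq libraries of the same strain, time and number taken as one lysate and fitted as a block, 402 and 161 features passed at 6 h in the mutant and the wild type, against 89 and 15, and none of the LSO1 and LSO2 values did. In that fit the 4 LSO1 values were above 0, at 0.51 and 0.44 in the mutant and 0.31 and 0.48 in the wild type.

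Lysate by lysate, LSO2 footprint CPM divided by RNA CPM was 1.24 and 4.95 in mutant replicates 1 and 3 at 0 h. The mutant lysates of 3 h gave 1.03, 1.09 and 1.26, and those of 6 h gave 1.44, 1.23 and 0.722. Wild-type lysates gave 1.59, 2.71 and 4.31 at 0 h, then 0.951, 0.966 and 0.754 after 3 h, and the 6 h lysate of replicate 3 gave 1.28. Ratios with fewer than 4 RNA counts were left out. Among these were wild-type 6 h replicates 1 and 2, with 21.9 and 18.6 footprint CPM against 22.2 and 7.24 RNA CPM. The 2.71 of the wild type at 0 h and the 1.09 of the mutant at 3 h rest on 4 RNA counts each. The wild-type ratios at 3 h were all under those at 0 h, while the mutant ratios at 3 h and at 6 h overlapped those at 0 h. For LSO1 the ratio was 0.775 to 1.13 in the mutant and 0.515 to 1.19 in the wild type over the 3 h and 6 h lysates. At 0 h it could be given for 1 mutant lysate (0.136, replicate 3 with 55 RNA counts) and 2 wild-type lysates (0.708 and 0.281). Mutant replicates 1 and 2 at 0 h were left out, with 0 and 1 RNA counts against 45 and 17 footprint counts. Wild-type replicate 2 was left out with 0 RNA counts against 12 footprint counts. The cut-off thus removed 0 h lysates with footprints but hardly any RNA counts. The ratios kept therefore do not show whether LSO1 footprints relative to RNA were lower at 0 h than with BPS.

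Beside LSO1, the other genes of the iron regulon were read from a list of 27. In RNA, 18 of the 27 rose in the mutant at 3 h and 25 at 6 h, and 23 and 26 rose in the wild type, with none lower. Of all features 2.13% and 17.8% rose in the mutant at these times, and 2.66% and 19.2% in the wild type. The median log2 fold change of the list was 2.20 and 2.62 in the mutant and 2.78 and 3.33 in the wild type, while the median of all features lay between -0.03 and 0.03. In footprints 20 and 24 rose in the mutant and 21 and 25 in the wild type, against 2.86% and 26.2% of all features in the mutant and 3.67% and 28.5% in the wild type. TIS11 is on the list and is deleted in the mutant, where its few footprint counts passed as lower at both times. At 6 h FRE4, a ferric reductase of the plasma membrane, passed in neither strain and neither assay, and was singled out after its values were seen.

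No gene of the list had a larger log2 fold change in RNA at 6 h than LSO1, in the mutant or in the wild type. FIT3, which encodes a cell wall mannoprotein that helps retain siderophores, came nearest in the wild type, with 5292 ± 1465 CPM at 6 h and 88.3 ± 33.3 CPM at 0 h (log2 fold change 5.95), and had 4.96 in the mutant. These margins were narrow. Without mutant 0 h replicate 1 LSO1 had 4.47 in the mutant, and without wild-type 0 h replicate 1 LSO1 had 5.55 in the wild type. Both are under the FIT3 values from all libraries. FIT3 without the same libraries was not compared, so the order of LSO1 and FIT3 there is not given. ARN2, a transporter of iron-loaded siderophores, had 4.73 in the mutant and 5.51 in the wild type. In footprints, 2 of the 27 genes had a larger value than LSO1 in the mutant at 6 h and 8 did in the wild type. There FIT3 had 5.42 in the mutant and 6.77 in the wild type, against 4.79 and 5.48 for LSO1. At 3 h, 2 genes of the list had a larger value than LSO1 in RNA in each strain, and in footprints 5 did in the mutant and 11 in the wild type.

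**Figure D5:**
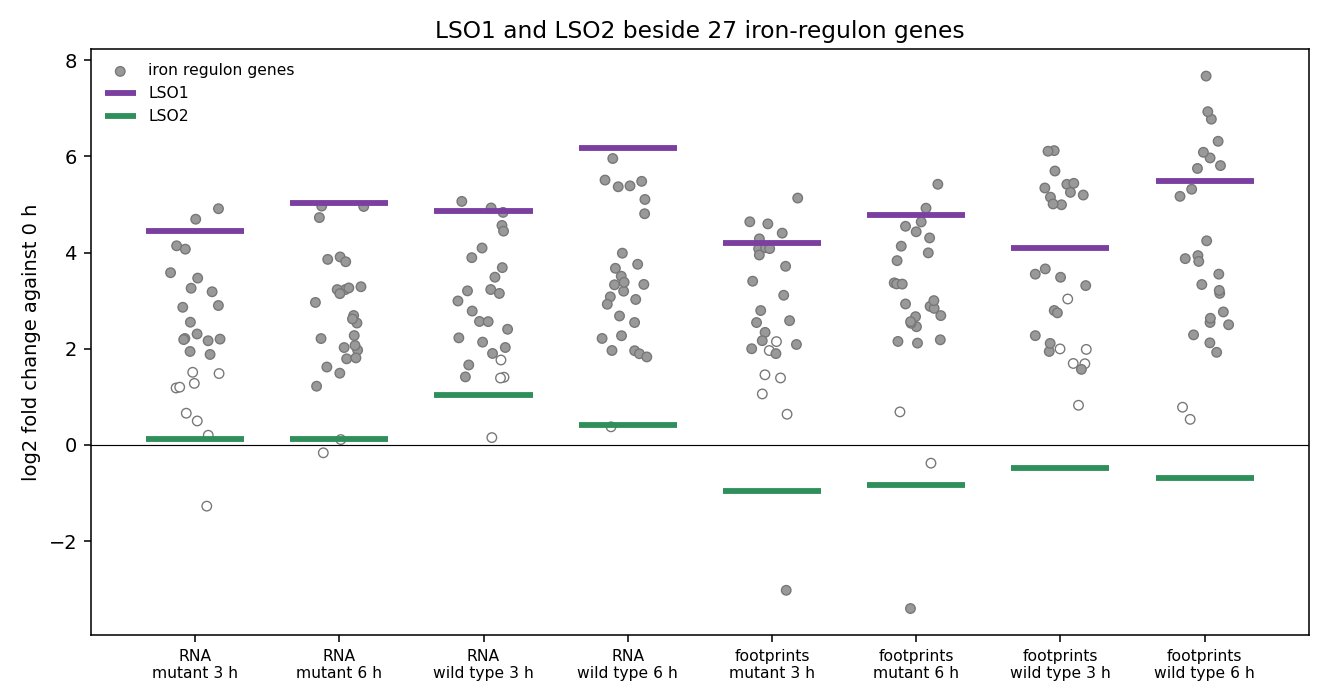
Log2 fold changes against 0 h of 27 iron-regulon genes (circles, filled where the adjusted p is under 0.05) with LSO1 (purple bar) and LSO2 (green bar), in RNA and footprints of the mutant and the wild type. The LSO1 bar is above all circles in RNA at 6 h in both strains, and LSO2 lies between -0.96 and 1.04.

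Many genes for other proteins that bind ribosomes fell by 6 h of BPS. Of 18 listed genes for ribosome-bound factors, YEF3 and ARB1 among them, 10 fell in RNA and 1 rose in the mutant at 6 h. In the wild type 9 fell and none rose. Of all features, 20.9% fell in RNA in the mutant and 16.7% in the wild type. The gene that rose, singled out after its values were seen, was MBF1 (log2 fold change 1.19), which encodes a coactivator that also acts at stalled ribosomes. In footprints at 6 h 11 of the 18 fell in each strain and none rose, against 24.5% of all features lower in the mutant and 24.3% in the wild type. At 3 h none of the 18 rose, and 1 fell in RNA in each strain, where 1.02% of all features fell in the mutant and 1.48% in the wild type. In footprints at 3 h none fell in the mutant and 1 fell in the wild type, where 0.828% and 1.81% of all features fell. The median log2 fold change of the list at 6 h in RNA was -1.17 in the mutant and -1.10 in the wild type, and in footprints -0.98 and -1.07. LSO2, with -0.82 and -0.69 in footprints, lay near these medians, and its RNA values of 0.12 and 0.41 did not.

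The largest falls of that list in wild-type RNA at 6 h were of RLI1 and RBG2. RLI1, the iron-sulfur ATPase that splits ribosomes for recycling, had a log2 fold change of -2.43 in the mutant (64.6 ± 21.1 CPM at 6 h and 341 ± 128 CPM at 0 h) and -3.32 in the wild type (30.6 ± 23.8 CPM at 6 h and 287 ± 12.7 CPM at 0 h). RBG2, a ribosome-associated GTPase, had -1.12 in the mutant and -2.17 in the wild type. Among 225 tested open reading frames of up to 300 nt, 49 rose and 37 fell in mutant RNA at 6 h, and 48 rose and 50 fell in the wild type. These are 21.8% and 16.4% of the short genes in the mutant and 21.3% and 22.2% in the wild type, near the 17.8% and 20.9% of all features in the mutant and the 19.2% and 16.7% in the wild type. By log2 fold change in RNA, 5 of these short genes were above LSO1 in each strain. Footprints of short genes differed more from all features. Among 174 tested, 33.9% fell in the mutant at 6 h and 45.4% in the wild type, against 24.5% and 24.3% of all features. Their median log2 fold change was -0.49 in the mutant and -0.93 in the wild type. LSO2, itself a short gene, had -0.82 and -0.69 there.

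The features most like LSO1 over the 36 libraries, by Pearson's r of log2 CPM centred within each assay, were FIT2 (r = 0.965), MRS4 (0.962), ECM4 (0.953), FIT3 (0.951) and APE1 (0.939). FIT2 and FIT3 are cell wall mannoproteins, MRS4 carries iron into mitochondria, ECM4 is a glutathione transferase and APE1 a vacuolar aminopeptidase. In all, 15 of 5290 features had an r above 0.9 with LSO1. For LSO2 none did, and the highest were VMA22 (0.737), FCF2 (0.674), CAJ1 (0.665), MET31 (0.658) and MTR2 (0.658). LSO1 and LSO2 had an r of -0.253 with each other. The libraries share strains, times and lysates, so these coefficients are descriptions. LSO2 had as few as 2 counts in an RNA-seq library and a narrower range than LSO1, which limits its r with any feature. Its lower coefficients therefore do not show that LSO2 lacks co-expressed genes.

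The genes next to the paralogues were chosen by position. In footprints, APL1 had the direction of LSO1, and PUS6 that of LSO2, in each comparison with 0 h. This match of signs was singled out after the values were seen, and POL31 and PSD2 changed sign between the strains there. In RNA, PUS6 had -0.45 and -0.66 in the mutant at 3 h and 6 h, where LSO2 had 0.12 and 0.12. PUS6 RNA in the wild type at 6 h was likewise opposite to the 0.41 of LSO2. POL31, a subunit of DNA polymerase delta that is transcribed away from LSO1 with 443 nt between the coding sequences, passed in no comparison with 0 h. APL1, on the other side of LSO1 and 451 nt away, passed in footprints at 6 h only, with log2 fold changes of 1.44 in the mutant and 1.22 in the wild type. PSD2, divergent from LSO2 at 476 nt, passed in none. PUS6, 483 nt from LSO2 on its other side, passed as lower in the wild type at 6 h, with -1.31 in RNA and -0.87 in footprints.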

How the data were processed

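The authors deposited read counts per feature and library with a feature length, and the counts were used as deposited. The submitters' processing notes name cutadapt 3.4, Bowtie 1.1.2, STAR 2.7.9a and build R64; the counting program, the use of strand and the handling of reads with several matches are not given in the sources used here. Of 7127 features, 6047 matched a name in RefSeq R64, 6008 of them protein-coding. Groups came from the sample titles.

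In edgeR 4.0.16 (R 4.3.3), features passing filterByExpr with a minimum count of 10 were tested (6006 in RNA-seq, 5315 in Ribo-seq, 5290 in both). TMM factors were used, and all 18 libraries of an assay entered a single quasi-likelihood fit with 12 residual degrees of freedom, or 24 for footprints relative to RNA. P-values were adjusted by Benjamini-Hochberg within a contrast at a threshold of 0.05. The standard error is the absolute log2 fold change over the square root of F, and 95% intervals use the degrees of freedom of the fit. The fits were also run on counts simulated with the same spread for every feature and balanced rises and falls. That setting is simpler than these data, so it does not check the calls given here. No replicate pair agreed within sampling noise (chi-square per degree of freedom 3.88 to 228.2). Sequences were searched and aligned with Biopython 1.88.

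LSO1, LSO2, the gene lists and the tests were chosen with earlier results of these data known. Named genes are LSO1, LSO2, CTH1, TIS11, the 2 largest rises and 2 largest falls of the iron-regulon and ribosome-bound lists among those past the threshold in wild-type 6 h RNA, and the 5 features most correlated with each paralogue; exceptions are marked. Correlation used log2 CPM with a prior count of 2. Same-numbered libraries deviated together (r above 0.1 in all 3 pairs) in 6 of the 14 comparisons of 2 groups, and there the replicate block changed no call of LSO1 or LSO2. Other settings tried were RLE factors, total counts, DESeq2 1.42.0, all features unfiltered, the compared groups alone, replicate and lysate blocks, and each library left out. Leaving out libraries under 250000 counts was added after seeing the data.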

Additional observations from a re-analysis of the deposited data

How the results depend on the processing

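Of 46 results for LSO1 and LSO2, 9 passed the threshold, and 7 of these 9 kept direction and call under every alternative run: all 4 LSO1 RNA changes, and the LSO1 footprint changes in the mutant at 3 h and 6 h and in the wild type at 6 h. In all, 651 of 721 recomputed values kept direction and side of the threshold. The cause of the moves below was not tested. For LSO2 footprints in the mutant at 6 h the log2 fold change of -0.82 was no longer called with total counts (-0.64), the compared groups alone (-0.85) or the replicate block (-0.76). For LSO1 footprints in the wild type at 3 h the compared groups alone gave 4.12, not called. LSO2 footprints in the mutant at 3 h were called with DESeq2 (-0.98). Between strains at 6 h, the LSO2 footprint difference of -0.04 turned to 0.063 with total counts, 0.0034 with the compared groups alone and 0.037 with the replicate block, and the strain difference in its 6 h response turned to 0.011 with total counts. For LSO2 RNA in the wild type at 3 h DESeq2 gave no adjusted p. In the 8 comparisons where same-numbered libraries did not all deviate together, mean r ran from -0.05 to 0.34. Whether those libraries share more than a number was not tested. There the block changed the call of LSO2 footprints in the mutant at 6 h alone.

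The labels say that both assays used aliquots of the lysates; deviations of same-numbered RNA-seq and Ribo-seq libraries had a mean r of 0.34, lowest 0.0263, over 18 pairs. With the lysate as a replicate block, the LSO1 change in footprints relative to RNA was 0.51 at 3 h and 0.44 at 6 h in the mutant, 0.31 and 0.48 in the wild type, and the strain difference at 6 h was -0.039 for LSO1 and -0.24 for LSO2. None was called with or without it.

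With each library left out in turn, LSO2 RNA against 0 h ranged from -0.35 to 0.88 in the mutant at 3 h, -0.36 to 0.87 in the mutant at 6 h and -0.29 to 1.05 in the wild type at 6 h. Mutant over wild type in RNA ranged from -1.02 to 3.18 for LSO1 at 0 h, and for LSO2 from -0.52 to 0.88 at 0 h and -0.33 to 0.69 at 6 h. The strain difference in the RNA response ranged from -1.39 to 2.81 at 3 h and -2.09 to 2.11 at 6 h for LSO1, and from -0.93 to 0.47 at 6 h for LSO2. In footprints, LSO1 in the wild type at 3 h ranged from 3.05 to 5.51, and LSO2 from -1.17 to -0.60 in the mutant at 6 h and -0.999 to -0.49 in the wild type at 6 h. Mutant over wild type in LSO2 footprints ranged from -0.13 to 0.30 at 0 h and -0.38 to 0.27 at 6 h. The strain difference in the footprint response ranged from -1.31 to 1.14 at 3 h and -2.12 to 0.33 at 6 h for LSO1, and from -0.47 to 0.18 at 6 h for LSO2. In footprints relative to RNA, LSO1 ranged from -3.50 to 0.47 and -3.54 to 0.44 in the mutant at 3 h and 6 h, and from -1.84 to 0.59 and -1.79 to 0.64 in the wild type, while the strain difference at 6 h ranged from -2.80 to 1.51 for LSO1 and -0.59 to 0.88 for LSO2.

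Counts of all features past the threshold moved by more than 1.5 times in these cases, leaving aside counts that stayed under 5. In RNA at 3 h the mutant had 189, and 304 with total counts, 325 with DESeq2 and 307 with the replicate block. In footprints at 3 h the mutant had 196, and 428 with DESeq2, 392 with its groups alone and 332 with the block, while the wild type had 291, and 447 with DESeq2. Between strains DESeq2 gave 48 (against 27) and 101 (47) in RNA at 3 h and 6 h, and 80 (46) in footprints at 3 h; the compared groups alone gave 18 (46) and 99 (333) in footprints at 3 h and 6 h. For the strain difference in the 3 h response DESeq2 gave 6 (1) in RNA and 29 (15) in footprints, and in the 6 h response 45 (2) in RNA and 266 (158) in footprints, where the groups alone gave 105 and the block 242. For footprints relative to RNA at 6 h the block gave 142 (89) in the mutant and 53 (15) in the wild type, and the lysate block 402 and 161; the groups alone gave 21 in the mutant, and DESeq2 34 in the wild type. There total counts gave 12 higher and 113 lower in the mutant, against 55 and 34, and 3 and 39 in the wild type, against 5 and 10. Total counts also gave 1683 higher and 1053 lower footprint features in the mutant at 6 h, against 1394 and 1304, and 140 and 17 for the strain difference in the 6 h response, against 118 and 40. Depth limits LSO2 in RNA most, with 2 to 4 counts in 5 libraries, and LSO1 at 0 h.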
